A study of Sus scrofa with 5 samples.

Results

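The miR-17-92 cluster is a set of microRNAs (miRNAs) cut from one primary transcript, that of the host gene MIR17HG. Its members were taken by name from the table of reported miRNAs, which gave 7 mature miRNAs (ssc-miR-17-5p, ssc-miR-17-3p, ssc-miR-18a, ssc-miR-19a, ssc-miR-20a, ssc-miR-19b and ssc-miR-92a) out of 411 names, of which 327 had a read in at least 1 library. All 7 members had reads. In the RefSeq annotation of Sscrofa11.1, MIR17, MIR18A, MIR19A, MIR20A, MIR19B-1 and MIR92A-1 are 6 direct neighbours in this order, with no other gene starting between them, and miR-17-5p and miR-17-3p are the arms of the first.

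Small RNA libraries of 5 pig samples were compared. BL_1 and BL_2 were pools of blastocysts taken on day 7 of culture in PZM3 medium, with serum added, after parthenogenetic activation, in which an oocyte is made to develop without sperm. The embryonic stem cell-like (ES-like) cells came from blastocysts and were grown on mitomycin-treated mouse embryonic fibroblasts in a serum medium with stem cell factor and basic fibroblast growth factor. The embryoid bodies (PEBs) were aggregates of ES-like cells detached from the feeders and left in hanging drops without these cytokines, and the pig fetal fibroblasts (PFFs, of mixed breed) were grown in serum medium without added cytokines. The labels name no genetic change in any group. The reads of ES-like cells and PEBs may include reads of the feeder cells, because many mature miRNAs are alike in pig and mouse, and the part of such reads was not tested. Only the BLs were sampled in 2 libraries. ES-like cells, PEBs and PFFs had 1 library apiece, and no replicate stands behind a difference among these. In such bulk samples, fewer cells that carry a miRNA and less of it per cell cannot be told apart.

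Depth varied widely, with 113743 reads of mature miRNAs for BL_1 and 27071931 for PFFs. ES-like cells had 6372500 reads, PEBs 15849954 and BL_2 2782150. The read summary of the study lists the totals of ES-like cells and PFFs the other way round. The columns named for the libraries were followed, and the markers lay with those names. The mesenchymal markers (ssc-miR-143-3p, ssc-miR-145-5p, ssc-miR-199a-3p, ssc-miR-214 and ssc-miR-21) summed to 680039 RPM (reads per 1000000 reads of mature miRNAs) in PFFs, 288182 RPM in PEBs, 195233 RPM in ES-like cells and 38789 and 70165 RPM in the BL libraries. Most of this sum was ssc-miR-21 (522808 RPM in PFFs), and ssc-miR-199a-3p (80420.2 against 52517 RPM) and ssc-miR-214 (774 against 516 RPM) were higher in PEBs than in PFFs. ssc-miR-371-5p, which marks the early embryo, was at 324635 and 296148 RPM in the BL libraries, 30.9 RPM in ES-like cells and 0.185 RPM in PFFs. ES-like cells and PEBs carried the liver miRNA ssc-miR-122 at 101004 and 54096 RPM, against 4.14 RPM in PFFs. Of the 4 blood cell markers in the table, all were without a read in BL_1, and they summed to at most 84.5 RPM in any library. The epithelial markers ssc-miR-183 and ssc-miR-205 summed to between 7717 and 19413 RPM in the libraries other than PFFs, which had 19.7 RPM. In ES-like cells and PEBs this was nearly all ssc-miR-183, with ssc-miR-205 at 21 and 71.7 RPM against 4748 and 5753 RPM in the BL libraries. These marker levels moved with the cell types compared, and their part in the members' values was not tested.

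A miRNA guides the Argonaute protein to messenger RNAs through its seed, a few bases near its 5′ end, and miRNAs with the same seed share most of their targets. The members other than miR-17-3p, which has a seed of its own, fall into 4 such families: miR-17-5p and miR-20a, miR-18a, which is closely related to them, miR-19a and miR-19b, and miR-92a. The cluster, also known as oncomiR-1, is switched on by MYC in dividing cells, and its members restrain genes that stop the cell cycle or promote cell death. miR-17-5p and miR-20a are known to repress the cell cycle inhibitor p21. Pig and other mammals carry a paralogue of the cluster on the X chromosome, the miR-106a-363 cluster, whose members are close copies of these miRNAs.

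Reads of the 7 members, with each name summed over its precursor rows, made up 5.61% of the mature miRNA reads in BL_1, 5.14% in BL_2, 10% in the ES-like cells, 6.56% in the PEBs and 0.96% in the PFFs. On RPM, PFFs thus stood far below the other libraries, and ES-like cells above them. With TMM scaling over all names, the log2 ratio of the summed cluster, PEBs minus ES-like cells, turned from -0.61 to 0.11. That of ES-like cells minus BLs fell from 0.90 to 0.24, and that of PFFs minus ES-like cells moved from -3.38 to -1.91. Without miR-92a, the sum in PFFs (3054 RPM) lay between those of BL_1 (2128 RPM) and BL_2 (3636 RPM). With TMM scaling it lay above both, at 5209.8 against 2011 and 3642, as it did with DESeq2 size factors (4460.3 against 2531 and 3947). The members were very unequal. miR-92a was the most abundant in each library, and miR-17-3p, the arm of the miR-17 hairpin that is mostly discarded, was the lowest or, in BL_1, without a read. The plot of members by library shows that order and that the members other than miR-92a lay at their highest in ES-like cells and PEBs.

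**Figure D1:**
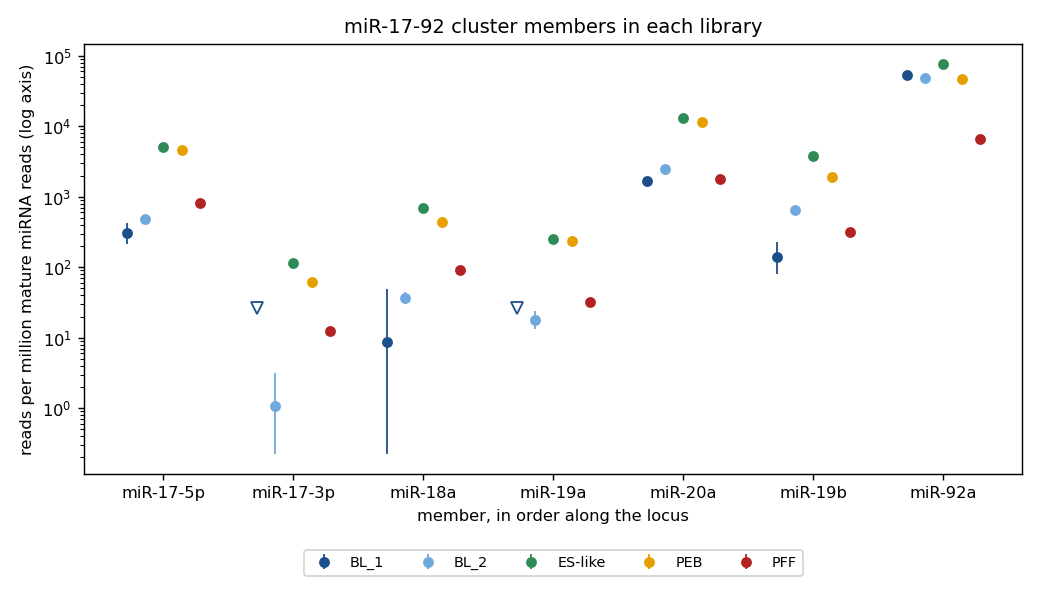
RPM (reads per 1000000 mature miRNA reads, log axis) of the 7 members in the 5 libraries, with bars for 95% Poisson intervals (counting error only). Open triangles mark members without a read, drawn at the 26.4 RPM that 3 reads would give in BL_1; miR-92a lies highest in every library, at 6544 RPM in PFFs and from 46699 to 77449 RPM in the others.

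miR-92a had 6135 reads in BL_1, 132999 in BL_2, 493542 in the ES-like cells, 740171 in the PEBs and 177147 in the PFFs. As RPM, these were 53937, 47804, 77449, 46699 and 6544 RPM. It was the fourth most abundant miRNA of BL_1 and of ES-like cells, rank 5 in BL_2, rank 6 in PEBs and rank 18 in PFFs. In BLs its mean was 50871 RPM ± 4337 (SD, n = 2), and PEBs lay within 1 SD of that mean, so the order of BLs and PEBs is not separated from the replicate spread. The 3 pluripotent libraries (BL_1, BL_2 and ES-like cells) all lay above both differentiated ones (PEBs and PFFs). This was so for 16.5% of the 279 miRNAs that had above 5 reads in 3 libraries or more, and for 1 of the 7 members, while 16.1% of these miRNAs and no member lay lower in all 3. With TMM scaling, 6.09% of these miRNAs lay higher and 27.6% lower, and with DESeq2 size factors 12.2% and 19%. The gap was narrow, and with the largest precursor row in place of the sum BL_2 (28833 RPM) fell below PEBs (31294 RPM).

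miR-20a, which shares the seed of miR-17-5p, was the next most abundant member. It had 190 reads in BL_1, 6796 in BL_2, 82653 in the ES-like cells, 184901 in the PEBs and 48507 in the PFFs, or 1670.4, 2443, 12970.3, 11666 and 1792 RPM. ES-like cells and PEBs lay well above the others, and PFFs lay between the BL libraries on RPM, but above both with TMM scaling (3057 against 1579 and 2447).

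miR-17-5p had 35, 1353, 31860, 73220 and 21815 reads in the same order of libraries. Its levels were 308 RPM in BL_1, 486 in BL_2, 4999.6 in the ES-like cells, 4619.6 in the PEBs and 806 in the PFFs. Here PFFs lay above both BL libraries, whose mean was 397 RPM ± 126 (SD, n = 2).

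miR-18a, of the related seed, was lower. It had 1 read in BL_1 and 102 in BL_2, against 4350 in the ES-like cells, 6993 in the PEBs and 2498 in the PFFs. Its levels were 8.79, 36.7, 683, 441 and 92.3 RPM, and the single read of BL_1 gives a 95% Poisson interval from 0.223 to 49 RPM, which holds the level of BL_2.

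The miR-19 pair, a main driver of the growth-promoting effect of the cluster in mouse lymphoma, was split. miR-19b had 16 reads in BL_1, 1812 in BL_2, 23853 in the ES-like cells, 30267 in the PEBs and 8662 in the PFFs. Its levels were 141, 651, 3743, 1909.6 and 320.0 RPM, so the BL libraries differed by a log2 ratio of 2.21 and PFFs lay between them. With the largest precursor row the levels were 84.8, 391, 2278, 1268 and 183 RPM. miR-19a had 0, 50, 1619, 3716 and 859 reads. It stood at 18 RPM in BL_2, 254 in the ES-like cells, 234 in the PEBs and 31.7 in the PFFs. BL_1 could hold up to 26.4 RPM of it without a read, so a difference between the BL libraries was not detectable at this depth.

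miR-17-3p had no read in BL_1, 3 in BL_2, 735 in the ES-like cells, 981 in the PEBs and 333 in the PFFs. The levels were 1.08 RPM in BL_2, 115 in the ES-like cells, 61.9 in the PEBs and 12.3 in the PFFs. In reads, miR-17-5p exceeded it 43.3 times in ES-like cells (95% interval 40.3 to 46.6), 74.6 times in PEBs (70.1 to 79.5) and 65.5 times in PFFs (58.8 to 73). The ratio of BL_2, 451, rests on those 3 reads and has an interval from 145 to 1400.1. Intervals of ratios and shares cover counting error only, since reads amplified by PCR are not independent molecules. Those that involve names with summed precursor rows, such as miR-92a and miR-19b, would not fully cover counting error if reads were counted at each row.

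Shares of the cluster reads differed between the libraries. miR-92a held 96.2% of them in BL_1 (95% Wilson interval 95.7 to 96.6%), 92.9% in BL_2 (92.8 to 93.1%), 77.3% in the ES-like cells (77.2 to 77.4%), 71.2% in PEBs (71.1 to 71.2%) and 68.2% in PFFs (68 to 68.4%). Both BL libraries thus lay above each cultured library. miR-20a held 2.98% in BL_1, 4.75% in BL_2, 12.9% in the ES-like cells, 17.8% in the PEBs and 18.7% in the PFFs. The share of miR-17-5p followed the same order of libraries, from 0.549% in BL_1 to 8.4% in PFFs. With the largest precursor row, miR-20a held 5.75, 8.95, 21.4, 28 and 28.8% in the same order of libraries. miR-17-5p then held from 1.06% in BL_1 to 13% in PFFs. miR-18a, miR-19a and miR-17-3p each stayed under 1% of the summed cluster reads in every library. With the largest row, miR-18a held 1.13% in the ES-like cells, 1.06% in the PEBs and 1.48% in the PFFs. These are ratios of reads, and how well each mature sequence is ligated and amplified was not measured.

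**Figure D2:**
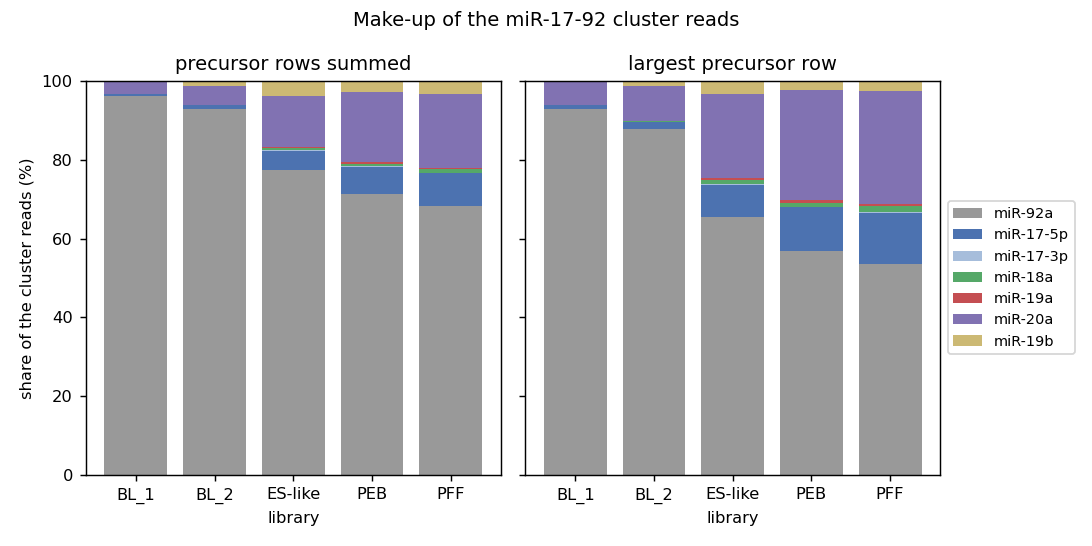
Share of the cluster reads (%) held by each member in the 5 libraries, with the precursor rows of a name summed (left) or only its largest row taken (right). miR-92a holds 96.2% in BL_1 and 68.2% in PFFs when summed, and 92.9% and 53.5% with the largest row.

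Some ratios between single members set the BLs apart and others did not. miR-20a exceeded miR-17-5p, its seed mate, 5.43 times in BL_1 (3.79 to 7.78) and 5.02 times in BL_2 (4.74 to 5.32). In ES-like cells, PEBs and PFFs the ratio was 2.59, 2.53 and 2.22. The BL values thus agree within counting error, and the lower bounds of both lie above the ratios of the cultured cells. miR-92a exceeded miR-17-5p 175 times in BL_1 (126 to 244) and 98.3 times in BL_2 (93.2 to 104), intervals that do not overlap, against 15.5 times in the ES-like cells, 10.1 in the PEBs and 8.12 in the PFFs. Of the miR-19 pair, miR-19b exceeded miR-19a 36.2 times in BL_2 (27.4 to 48), 14.7 times in the ES-like cells, 8.15 times in the PEBs and 10.1 times in the PFFs. With the largest precursor row, miR-92a exceeded miR-17-5p 87.8, 49.3, 7.92, 5.12 and 4.13 times in BL_1, BL_2, ES-like cells, PEBs and PFFs, and the ratio of miR-19b to miR-19a in BL_2 was 18.1. The ratio of miR-19b to miR-17-5p was 0.457 in BL_1 and 1.34 in BL_2, on either side of the 0.749 of ES-like cells, and 0.413 and 0.397 for PEBs and PFFs. miR-20a exceeded miR-19b 11.9 times in BL_1 and 3.75 times in BL_2, and the cultured cells lay at 3.47, 6.11 and 5.6 times. These ratios to miR-19b thus did not separate the BLs. With the largest row, miR-19b to miR-17-5p was 0.229, 0.67 and 0.376 in BL_1, BL_2 and ES-like cells, and miR-20a to miR-19b was 23.8 in BL_1 and 7.5 in BL_2.

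Across the 5 libraries, Pearson's r of log2(RPM + 1) between pairs of the 6 members other than miR-92a lay between 0.846 and 0.987. Between miR-92a and each of these 6, it lay between 0.059 and 0.516. These are descriptions over 5 points that share libraries and depth. miR-17-3p and miR-19a enter BL_1 at 0 reads, so their values there are set by the added 1 RPM. With precursor rows summed, 4 members had over 10 reads in every library, though miR-19b had 8 in BL_1 with the largest row. Their highest and lowest libraries were 2.96 apart on log2(RPM + 1) for miR-20a, 3.56 for miR-92a, 4.02 for miR-17-5p and 4.72 for miR-19b. The median over the 279 miRNAs was 3.97.

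miR-19b and miR-92a are each listed under 2 precursors, of which mir-19b-1 and mir-92a-1 lie in this cluster. In RefSeq, MIR19B-2 and MIR92A-2 lie between MIR363-1 and MIR20B-1, inside the paralogous block that ends with MIR18B and MIR106A. The rows of the 2 precursors were nearly equal. For miR-19b, mir-19b-1 and mir-19b-2 both had 8 reads in BL_1 and both had 906 in BL_2. In ES-like cells they had 11884 and 11969 reads, in PEBs 15072 and 15195 and in PFFs 4322 and 4340. The row of mir-19b-2 was thus the larger in the 3 cultured libraries, by at most 0.809%.

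For miR-92a, mir-92a-1 and mir-92a-2 had 3063 and 3072 reads in BL_1 and 66266 and 66733 in BL_2. In ES-like cells they had 252258 and 241284 reads, in PEBs 375138 and 365033 and in PFFs 90019 and 87128. The row of this cluster, mir-92a-1, was the larger in the cultured libraries and the smaller in both BL libraries. The difference was 10974 reads or 4.35% of the larger row in ES-like cells, 2.69% in PEBs, 3.21% in PFFs, 0.7% in BL_2 and 0.293% in BL_1. At least that many reads were counted at the larger row alone.

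Near-equal rows were common in the table. Of 57 miRNAs with reads and more than 1 precursor row, 26 had identical counts on their rows in every library, miR-20b and miR-363 among them, and 48 differed by less than 10% in total. How reads that match several precursors were counted is not stated in the sources used here. If such a read was counted at each precursor, the sum holds it more than once, and the rows do not show from which locus it came. With only the largest row of each name, the cluster made up 3.5% of the reads of BL_1, 3.28% of BL_2, 7.34% of ES-like cells, 5.51% of PEBs and 0.711% of PFFs. miR-92a then held 92.9% and 87.9% of the cluster reads in the BL libraries, 65.4% in the ES-like cells, 56.8% in the PEBs and 53.5% in the PFFs. The order of the libraries in miR-92a share was the same with either count, and it remained the most abundant member in each library.

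ES-like cells were compared with BLs, the cell type from which such lines are derived. Of the 7 members, 6 were more than 2-fold higher in ES-like cells than in the mean of BL_1 and BL_2 (RPM), as were 53.9% of the 293 miRNAs with at least 10 reads in a library compared. miR-17-3p, with 0 reads in BL_1 and 3 in BL_2, met that limit of 10 reads only through ES-like cells. No conclusion is drawn from its place among the 6, and other miRNAs could enter the 293 in the same way. No member was more than 2-fold lower, against 23.9% of the 293 miRNAs. The median log2 ratio was 3.65 over the members and 1.32 over all these miRNAs. miR-17-5p was 16.2 times as high as in BL_1 and 10.3 times as high as in BL_2, and miR-20a 7.76 and 5.31 times. miR-19b was 26.6 times as high as in BL_1 and 5.75 times as high as in BL_2. miR-18a was 18.6 times as high as in BL_2 (15.3 to 22.7), and 77.6 times as high as the 1 read of BL_1 (10.9 to 551). miR-19a was at least 9.63-fold higher than the limit of 3 reads in BL_1 and 14.1 times as high as in BL_2. miR-17-3p was at least 4.37-fold higher than that limit in BL_1 and 107 times as high as in BL_2 (34.4 to 332). miR-92a was the exception, at 1.44 and 1.62 times its level in BL_1 and BL_2, and its log2 ratio of 0.61 turned to -0.06 with TMM scaling and -0.05 with DESeq2 size factors. TMM and these factors also lowered the median of all miRNAs, to 0.65 and 0.68, and that of the members, to 2.98 and 3.01.

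The cultured cells were each tested against BLs with edgeR's quasi-likelihood test on 279 miRNAs, in which the spread came from the BL pair alone and each single library was assumed to vary like it. The 3 comparisons share the BL libraries. In ES-like cells, 2 of the 7 members passed an adjusted p of 0.05, against 25.8% of all miRNAs tested (17.2% higher and 8.6% lower). These were miR-17-3p, fitted 5.69 ± 1.69 log2 units higher (± standard error derived from the test statistic, adjusted p = 0.0065), and miR-18a, with 3.62 ± 1.36 (adjusted p = 0.0381). miR-17-5p had 2.70 ± 1.20 (adjusted p = 0.079), miR-19a 3.21 ± 1.39 (0.0712), miR-19b 2.13 ± 1.23 (0.191), miR-20a 1.73 ± 1.13 (0.255) and miR-92a -0.21 ± 1.04 (0.886). The median was 2.70 over the members and 0.55 over all miRNAs tested. miR-17-3p, with 0 reads in BL_1 and 3 in BL_2, met the limit of above 5 reads in 3 libraries only through the cultured libraries. No conclusion is drawn from its calls against BLs under this or the other fits.

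In PEBs, 1 member passed, against 28.3% of all miRNAs tested (18.6% higher and 9.68% lower). It was miR-17-3p, with 4.99 ± 1.68 (adjusted p = 0.015), which had entered the test only through the cultured libraries, so no conclusion is drawn from its call. miR-18a had 3.18 ± 1.35 and miR-19a 3.28 ± 1.39 (adjusted p = 0.0601 for both). The medians were 2.78 and 0.50. In PFFs, 0 members passed with edgeR, against 30.8% of all miRNAs tested (15.4% in each direction). DESeq2 called 1, miR-92a, as lower (41.9% of all miRNAs). With edgeR, 2 members had an unadjusted p under 0.05 in PFFs, as did 120 of the 279 miRNAs. miR-92a was fitted at -2.68 ± 1.19 there (adjusted p = 0.0693) and miR-20a at -0.03 ± 1.17 (0.982). The calls depended on the fit: with DESeq2 size factors in edgeR, without the filter on low counts, or with the largest precursor row, 6 members passed in ES-like cells, 6 in the PEBs and 4 in the PFFs. In PFFs, miR-17-5p, miR-17-3p and miR-18a were called higher than in BLs and miR-92a lower. The shares of all miRNAs tested that passed under these fits were also higher, from 47.1 to 48.7% in ES-like cells, from 49.5 to 53.8% in PEBs and from 50.5 to 53.1% in PFFs.

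PEBs were then set beside the ES-like cells from which they were made, with 1 library each. None of the 7 members was past 2-fold in either direction, while 21.4% of 285 miRNAs were higher and 23.5% lower by more than 2-fold. miR-17-5p, miR-19a and miR-20a were at 0.924, 0.923 and 0.899 times their level in ES-like cells. miR-18a was at 0.646, miR-92a at 0.603, miR-17-3p at 0.537 and miR-19b at 0.51 times (95% counting interval 0.502 to 0.519). All 7 thus lay lower in PEBs on RPM, with a median log2 ratio of -0.63 against -0.19 for all miRNAs. With TMM scaling over all names, which moved the median of all miRNAs to 0.53, miR-17-5p, miR-18a, miR-19a and miR-20a lay higher in PEBs. TMM in the edgeR fit against BLs covered only the filtered miRNAs. There, the fitted value of miR-18a was lower in PEBs than in ES-like cells (3.18 and 3.62), and so was that of miR-92a (-0.75 and -0.21). Those of miR-17-5p (2.78 and 2.70), miR-19a (3.28 and 3.21) and miR-20a (1.77 and 1.73) were slightly higher in PEBs. With the largest precursor row on RPM, the log2 ratios of miR-17-5p and miR-19a were 0.01 and that of miR-20a was -0.03.

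PFFs lay below both ES-like cells and PEBs for each member. Against ES-like cells, 7 of 7 members were more than 2-fold lower, as were 51% of 292 miRNAs, while 17.8% were higher. The levels were from 6.2 times (miR-17-5p) to 11.8 times (miR-92a) lower. miR-20a was 7.24 times, miR-18a 7.4 times, miR-19a 8.01 times, miR-17-3p 9.38 times and miR-19b 11.7 times lower. The median log2 ratio was -3.00 over the members and -1.02 over all miRNAs. With TMM scaling these medians were -1.53 and 0.45, and with DESeq2 size factors -1.98 and -0.01.

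Against PEBs, again 7 of 7 members were more than 2-fold lower in PFFs, as were 44.7% of 295 miRNAs, while 16.6% were higher. The levels were from 4.78 times (miR-18a) to 7.39 times (miR-19a) lower, a narrower range than against ES-like cells. miR-92a was 7.14 times and miR-20a 6.51 times lower. The medians were -2.58 over the members and -0.76 over all miRNAs, -1.82 and 0.00 with TMM scaling and -1.59 and 0.23 with DESeq2 size factors. ssc-miR-21 took 522808 RPM of PFFs, and with the top miRNA of every library taken out of the totals the medians were -1.81 and 0.00. Each member was lower in PFFs than in ES-like cells and PEBs under all of these scalings.

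**Figure D3:**
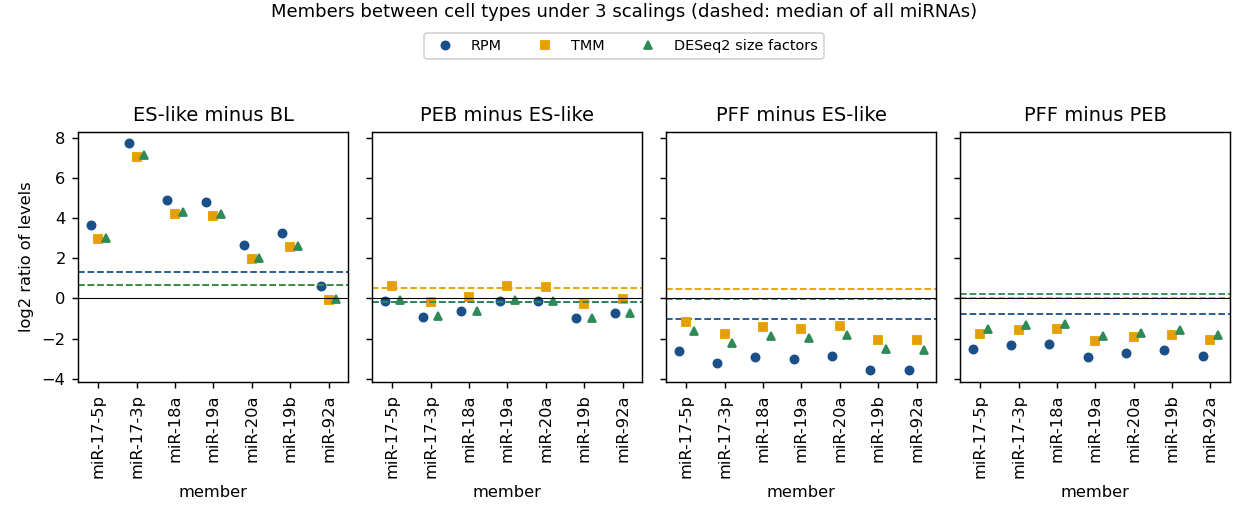
Log2 ratio of the level of each member between pairs of cell types (BLs as the mean of 2 libraries), on RPM, TMM-scaled and DESeq2-scaled values; dashed lines mark the median of all miRNAs with at least 10 reads in a library compared. All members lie below that median in both comparisons of PFFs. Between ES-like cells and BLs, miR-92a alone lies near 0 on TMM-scaled (-0.06) and DESeq2-scaled (-0.05) values, and at 0.61 on RPM.

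The pluripotent libraries were compared with the differentiated ones by edgeR's quasi-likelihood test, as in the groups of the study. No member passed an adjusted p of 0.05, with the background at 0% of 279 miRNAs, and none of the 7 had an unadjusted p under 0.05. Over all miRNAs, edgeR called 0 and limma 0, with 21 at an unadjusted p under 0.05 in edgeR, and DESeq2 called 14, none of them a member. The fitted log2 fold changes (pluripotent minus differentiated) were 1.35 ± 1.27 (standard error) for miR-92a, 0.34 ± 1.39 for miR-19b, -0.21 ± 1.78 for miR-17-3p, -0.31 ± 1.22 for miR-20a, -0.42 ± 1.57 for miR-18a, -0.69 ± 1.31 for miR-17-5p and -0.73 ± 1.66 for miR-19a. Adjusted p ranged from 0.746 to 0.983. The signs of the 6 members other than miR-92a turned in at least 1 alternative. Without PEBs, those of miR-17-5p, miR-18a, miR-19a and miR-20a became positive. On RPM the groups overlapped for the 6 members other than miR-92a, with ES-like cells highest and BL_1 lowest. With TMM scaling over all names, PEBs were highest for miR-17-5p, miR-18a, miR-19a and miR-20a. With the largest row on RPM, PEBs were highest for miR-17-5p and miR-19a. Each group holds different cell types, so its spread includes the gap between BLs and ES-like cells.

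The paralogous miR-106a-363 cluster was read beside the members. It holds miR-106a and miR-20b, of the miR-17 family, miR-18b, and miR-363, of the miR-92a family. The 4 miRNAs summed to 536 RPM in BL_1, 417 in BL_2, 51889.8 in the ES-like cells, 13031 in the PEBs and 336 in the PFFs. Identical rows of miR-20b and miR-363 enter these sums, and with the largest row of each name they were 339, 259.7, 33507, 9207 and 201 RPM. In edgeR's test against BLs, in which the BL pair gave the only spread and 1 library stood for each other cell type, 4 of 4 passed an adjusted p of 0.05 in ES-like cells and 4 of 4 in PEBs. The shares over all miRNAs tested were 25.8% and 28.3%. In PFFs 0 of 4 passed, against 30.8% of all, with 0 at an unadjusted p under 0.05 in edgeR, against 120 of the 279 miRNAs. DESeq2 and the other fits tried gave the same 4, 4 and 0 calls. Of all miRNAs tested, from 39.8 to 53.8% passed under these fits. miR-18b, without a read in either BL library, met the limit of above 5 reads in 3 libraries only through the cultured ones. No conclusion is drawn from its calls.

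The ratios of members to their paralogues differed widely between libraries. miR-17-5p exceeded miR-106a 1.54 times in ES-like cells, 5.29 times in PEBs, 57.3 times in PFFs, 31.5 times in BL_2 and 11.7 times in BL_1, where miR-106a had 3 reads (3.59 to 37.9). miR-20a exceeded miR-20b, whose 2 identical rows were summed, 1.78 times in the ES-like cells, 6.74 times in the PEBs and 43.9 times in the PFFs. With 1 of these rows the ratios were 3.56, 13.5 and 87.7. miR-18a exceeded miR-18b 6.21, 20.2 and 80.6 times in these libraries, and miR-18b had no read in either BL library. miR-92a exceeded miR-363 1.88 times in ES-like cells, 4.49 times in PEBs, 23.4 times in PFFs, 145 times in BL_2 and 128 times in BL_1. Among libraries with reads of both, the paralogue of each pair came closest to its member in ES-like cells.

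From ES-like cells to PEBs, the 4 paralogues were from 3.71 times (miR-106a) to 5.02 times (miR-18b) lower, against 1.08 to 1.96 times for the 7 members. The ranges do not overlap. Of 285 miRNAs, 23.5% were more than 2-fold lower in PEBs than in ES-like cells (RPM). The difference between paralogues and members has 1 library on each side and no test. Of the members, miR-19b (1.96 times lower) and miR-92a (1.66 times) have a second precursor in the paralogous block. Of those without one, miR-17-3p was 1.86 times, miR-18a 1.55 times, miR-20a 1.11 times and miR-17-5p and miR-19a 1.08 times lower.

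**Figure D4:**
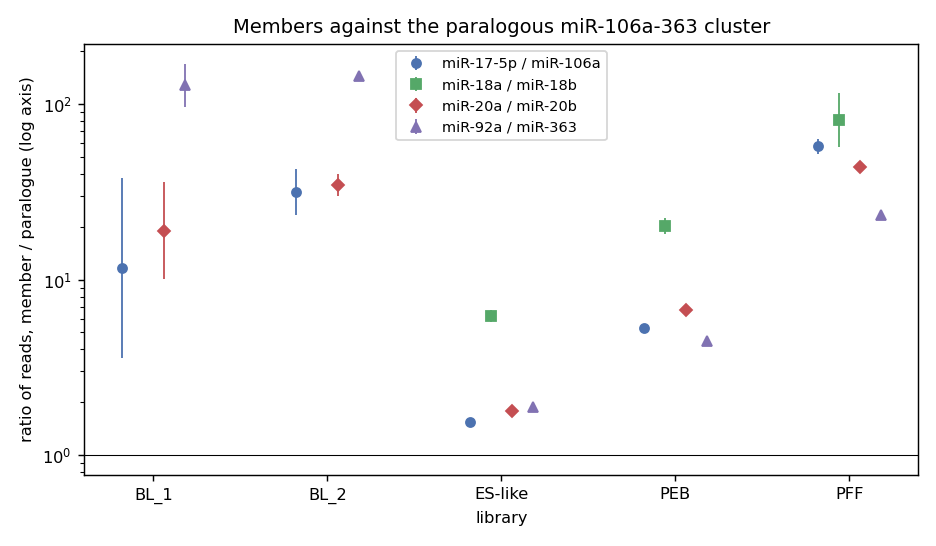
Reads of a member divided by reads of its paralogue in the miR-106a-363 cluster (log axis) in the 5 libraries, with 95% counting intervals. Each ratio with reads on both sides is lowest in ES-like cells, from 1.54 for miR-17-5p to miR-106a up to 6.21 for miR-18a to miR-18b.

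Further miRNAs of the miR-92a seed family were low. miR-92b-3p stood at 571 RPM in BL_1, 408 in BL_2, 178 in the ES-like cells, 174 in the PEBs and 89.7 in the PFFs, and so was highest in the BLs. miR-32 had no read in BL_1 and stood at 26.2 RPM in BL_2, 449 in the ES-like cells, 203 in the PEBs and 104 in the PFFs. miR-92a exceeded miR-92b-3p from 72.9 times in PFFs to 435 times in ES-like cells, or 37.1 and 222 times with the largest row. The third cluster of the family, miR-106b-25, was not analysed here.

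The 5 miRNAs outside the cluster whose levels most resembled the cluster sum, by Pearson's r of log2(RPM + 1) over the 5 libraries among 266 candidates with at least 10 reads in at least 3 libraries, were miR-96-5p (0.994), miR-30e-3p (0.971), miR-500 (0.957), miR-183 (0.946) and miR-122 (0.945). All 5 had their lowest level in PFFs, but their ranges differed. miR-96-5p ranged from 2.18 RPM in PFFs to 2098 RPM in ES-like cells, and miR-30e-3p only from 147 to 345 RPM. With TMM scaling 3 of the 5 remained, and miR-146b and miR-182 took the places of miR-30e-3p and miR-500. The sum follows miR-92a, and for the sum of the other 6 members the 5 closest were miR-125a (0.988), miR-421-3p (0.983), miR-296-5p (0.982), miR-215 (0.975) and miR-376a-5p (0.968), none of them among the first 5.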

How the data were processed

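Small RNA libraries were made with the NEXTFLEX Small RNA-Seq Kit v3. The authors trimmed reads with cutadapt 1.10, aligned them with Bowtie 1.1.1 and counted with SAMtools 1.2 and HTSeq 0.6.1p1 on Sscrofa10.2 (per the submitters' processing notes), and sorted miRNAs with miRDeep2 on miRBase. The deposited values are raw read counts per pair of mature miRNA and precursor, 493 rows and 411 names. A table of predicted loci was not used here.

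Counts were summed over the precursor rows of a name and given per 1000000 reads of the library (RPM). TMM-scaled levels used factors taken over all 411 names, while TMM in the main tests was taken over the miRNAs that passed the filter. Shares have 95% Wilson intervals, levels exact Poisson intervals and ratios of reads intervals on the log scale. Tests used edgeR 4.0.16 (quasi-likelihood, TMM, Benjamini-Hochberg over the 279 miRNAs that had above 5 reads in 3 libraries or more), with DESeq2 1.42.0 and limma 3.58.1 as alternatives, and the procedure was tested on simulated data. Standard errors of edgeR values were derived from the fold change and the test statistic. The sources do not say whether the BL pools were separate cultures, so p-values measure only the spread between these samples. Depth ran from 113743 to 27071931 reads, so 3 reads were worth 26.4 RPM in BL_1 and 0.111 RPM in PFFs.

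The 7 members, the paralogues and seed relatives and the 5 miRNAs of most similar pattern were named by rule. Members and lists were chosen with earlier results of these data known. Alternatives covered scaling, filter, tool, precursor rows, pseudocount and each library left out. Mature sequences are not shown.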

Additional observations from a re-analysis of the deposited data

How the results depend on the processing

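No member was called between pluripotent and differentiated libraries under any alternative run, while the count over all miRNAs was 0 with edgeR, 14 with DESeq2 and from 0 to 16 with 1 library left out (16 without ES-like cells). The fitted value of miR-92a stayed positive in all 10 alternatives, but moved from 1.35 to 0.73 without PFFs and 2.33 without PEBs. The signs of the other 6 members turned in at least 1 alternative. Without PEBs the log2 fold change was 0.08 for miR-17-5p, 0.17 for miR-18a, 0.33 for miR-19a and 0.57 for miR-20a. Without BL_1 it was 0.29 for miR-17-3p, 0.14 for miR-18a and 0.14 for miR-20a, and without BL_2 0.37 for miR-17-3p and 0.00 for miR-18a. miR-19b turned to -0.26 without a filter, -0.19 with the largest row, -1.44 without ES-like cells and -0.21 without PFFs, and stood at 1.09 without PEBs. Without ES-like cells the values were -2.78 for miR-17-5p, -3.39 for miR-18a, -3.42 for miR-19a and -1.72 for miR-20a.

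Against BLs, the count of miRNAs called in ES-like cells was 72 with edgeR and TMM, 136 with DESeq2 size factors, 111 with DESeq2, 154 without a filter and 131 with the largest row, and 6 members were called under each of these 4 alternatives. In PEBs 79 became 138, 176 and 149 with the size factors, no filter and the largest row, with 6 members each, and DESeq2 called 109 miRNAs and 5 members. In PFFs 86 became 143, 165 and 147, with 4 members each, and DESeq2 called 117 miRNAs and 1 member. miR-92a in ES-like cells turned to 0.01 with the largest row. In PFFs, miR-20a turned to 0.17 with the size factors, 0.17 with DESeq2, 0.60 without a filter and 0.56 with the largest row, and miR-19b to 0.03, 0.06, 0.41 and 0.32. The cause was not tested.

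Of the 6 members more than 2-fold higher in ES-like cells than BLs, 3 had at least 10 reads in every library compared. Among these 3, miR-19b had 16 reads in BL_1 with its rows summed and 8 with the largest row. The log2 ratio of the summed cluster, ES-like cells minus BLs, was 0.90 on RPM, 0.24 with TMM, 0.24 with DESeq2 size factors, 0.61 without the most abundant miRNA and 1.11 with the largest row. PEBs minus ES-like cells was -0.61, but 0.11 with TMM over all names, and -0.41 with the largest row. PFFs minus ES-like cells was -3.38, and -1.91 with TMM, -2.37 with size factors and -2.57 without the most abundant miRNA. PFFs minus PEBs was -2.77, and -2.02, -1.78 and -2.01 in the same order, and -2.95 with the largest row. Further alternatives, among them the scalings of the sum without miR-92a and the fits of the paralogues, were chosen after seeing the data. Without miR-92a the 4 ratios were 2.98, -0.27, -2.90 and -2.63. With the precursor rows of the cluster itself they were 1.11 for ES-like cells minus BLs and -3.28 for PFFs minus ES-like cells.

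The share of miR-92a in BL_1, BL_2, ES-like cells, PEBs and PFFs was 92.9, 87.9, 65.4, 56.8 and 53.5% with the largest row, 92.9, 87.8, 65, 56.5 and 53.1% with the summed count divided by its 2 rows, and 92.9, 87.8, 65.5, 56.8 and 53.5% with the rows of the cluster itself. The arm ratio of miR-17 has no value for BL_1, which had no read of miR-17-3p. No paired analysis was possible because only BLs had numbered replicates. The depth of BL_1 limits miR-17-3p, miR-18a and miR-19a.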
